A study of Mus musculus with 15 samples.

Results

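Interferon-stimulated genes are genes whose transcription rises when a cell senses type I or type II interferon, and 42 of them, listed by symbol, are described here across mouse bone marrow myeloid cells. The array carried a usable measurement for 40 of the 42, among 18193 genes in all. A probe set was used when the array annotation gave it to 1 gene alone, and where a gene had several, the one with the highest mean over the 15 arrays was taken. The probe set of Isg15 is annotated with a second gene and was left out, and Ifi44 was not analysed here. The 40 genes had 64 probe sets between them, and 16 genes had more than 1.

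The cells were C57Bl/6 wild-type cells taken at steady state, with no interferon or infection named in the labels. Progenitor populations of 4 kinds were sorted from bone marrow, with 2 arrays each: common myeloid progenitors (CMP, CD117 high, CD135+, CD16/32-), granulocyte and macrophage progenitors (GMP, CD117 high, CD16/32+, CD135-), common dendritic cell progenitors (CDP, CD117 intermediate, CD135+, CD16/32-) and the precursor of classical dendritic cells (pre-cDC, CD117 low, CD135+, CD11c+). All these sorts were IL7R- and MHCII-. Another pre-cDC array is titled Spl while its cell type label reads bone marrow progenitor. Whole bone marrow was grown for 7 days in 20 ng/ml GM-CSF or M-CSF, and 1 array each was made of the adherent M-CSF cells, the adherent GM-CSF cells and the non-adherent CD11c+ GM-CSF cells. Bone marrow monocytes, enriched by negative selection, were measured at 0, 24 and 48 h with 20 ng/ml GM-CSF, with 1 array per time. The labels do not say that the paired arrays came from separate animals; each p-value therefore rests on the spread within pairs of arrays, which may be technical.

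Type I interferon acts through the receptor chains Ifnar1 and Ifnar2, which activate the kinases Jak1 and Tyk2, and a factor that holds Stat2 and Irf9 then binds the interferon-stimulated response element (ISRE) of target genes. Interferon gamma acts through Ifngr1 and Ifngr2 and leads to binding at the gamma-activated site (GAS). The products restrict viruses and intracellular microbes, and a basal level of the programme, kept up by low tonic interferon, is known in many blood cells.

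The ISRE core and the GAS were looked for in promoter windows of RefSeq (build GRCm38.p6), each running from 250 bases before to 50 bases after a gene's start, and 30 of the 40 genes had a window. The ISRE core was searched on both strands as GAAA, any 2 bases, then GAAA. It was present for 15 of the 30 genes and for 3.99% of the 27025 genes with a window. The GAS, TTCNNNGAA, reads the same on both strands and was present for 10 of the 30 (33.3%) and for 9.55% of all. Both motifs overlap each other in the windows of Ifitm3 and Bst2. A match is a run of letters and was not shown to be a bound site. The 6 short stretches that follow are shown because their genes span the patterns described next. Ifit1 and Rsad2 were far lower in monocytes after 24 h. Among the progenitors Stat2 and Bst2 were highest in pre-cDC and Gbp3 was lowest there. Cxcl10 was the 1 member that passed the test given below as higher in GMP than in CMP. Each stretch is written 5′ to 3′ along the gene's strand, with 1 ISRE core in capitals. TTTC at both ends of the capitals means that the core lies on the opposite strand. In Bst2 and Gbp3 another match overlaps the capitals and runs on into the lower-case letters.
Ifit1, chr19:34640775-34640804, plus strand: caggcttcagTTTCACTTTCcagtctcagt
Rsad2, chr12:26456553-26456582, minus strand: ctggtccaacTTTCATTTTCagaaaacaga
Stat2, chr10:128270266-128270295, plus strand: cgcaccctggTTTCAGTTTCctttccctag
Bst2, chr8:71537583-71537612, minus strand: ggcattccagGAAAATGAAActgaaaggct
Gbp3, chr3:142559989-142560018, plus strand: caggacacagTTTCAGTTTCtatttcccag
Cxcl10, chr5:92349083-92349112, minus strand: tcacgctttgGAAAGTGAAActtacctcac
The first capital stands 104 bases before the transcript start of the window in Ifit1, 120 in Rsad2, 222 in Stat2, 130 in Bst2, 45 in Gbp3 and 213 in Cxcl10; the Gbp3 window is set on a start that lies inside the RefSeq gene, downstream of its first base. Bst2 and Gbp3, which moved in opposite directions between CDP and pre-cDC, both held the core.

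The deposited intensities are on 4 scales, with array medians of 15.95 to 17.44 for the progenitors, 24.09 to 25.66 for the cultures, 77.73 to 80.53 for the monocytes and 74.17 for the Spl array, so levels were compared only within a scale. The 2 arrays of each progenitor group correlated at 0.995 to 0.997 over all genes, and no interferon-stimulated gene differed 2-fold between them. Markers followed the sorts: the summed intensity of 5 GMP genes (Mpo, Elane, Prtn3, Ctsg, Fcgr3) was 27960 to 28410 in GMP and at most 11180 in the other progenitors, and that of 6 CDP and pre-cDC genes was 12670 to 13710 in pre-cDC and at most 3438 elsewhere in the progenitors.

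Among the progenitors, most interferon-stimulated genes were lowest in GMP and most were highest in pre-cDC. The group mean was lowest in GMP for 29 of the 40 genes, in pre-cDC for 8 and in CDP for 3, whereas over all genes 27.9% were lowest in GMP and 36.4% in pre-cDC. It was highest in pre-cDC for 25 genes, in CMP for 11, in GMP for 3 and in CDP for 1, against 33.5% of all genes in pre-cDC and 22.5% in CMP. One limma fit over the 8 arrays, on log2(intensity + 32), tested 6 pairs of groups, with p-values adjusted by Benjamini-Hochberg over all 18193 genes. At an adjusted p below 0.05, 38 of the 40 genes differed in at least 1 pair and 20 of these by at least 2-fold. Oas1a and Dtx3l passed in none. The share of all genes that passed in at least 1 of the 6 pairs was not computed. In 1 pair alone, pre-cDC against GMP, 21.0% of all genes were higher and 23.1% lower.

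**Figure D1:**
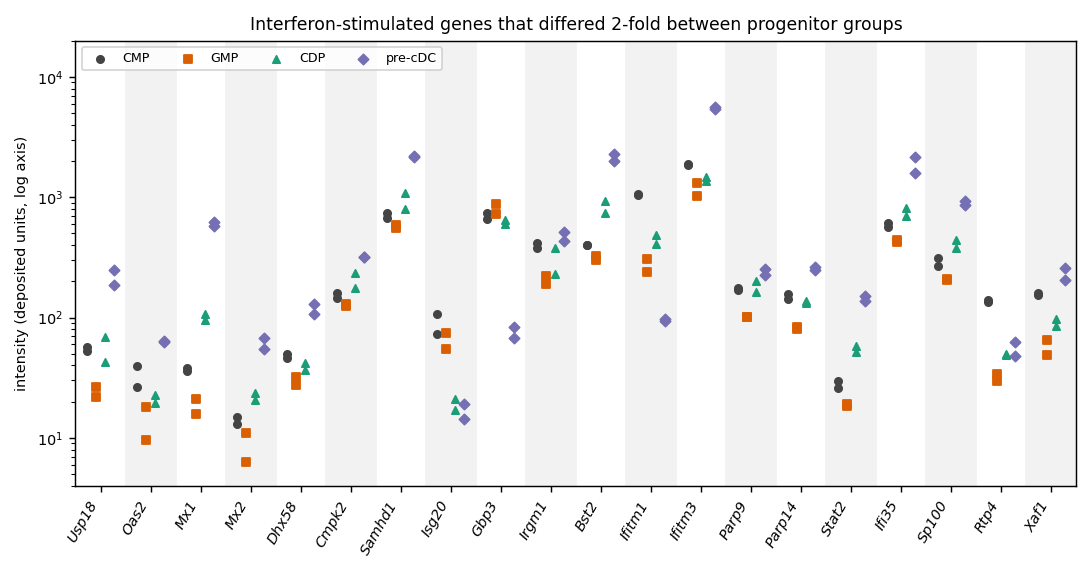
Deposited intensity (log axis) on each of the 8 progenitor arrays for the 20 interferon-stimulated genes that passed the test with at least a 2-fold difference between some pair of groups; each symbol is 1 array and colour and shape give the group. Mx1, Bst2, Ifitm3 and Ifi35 are highest in pre-cDC, Gbp3 and Ifitm1 are lowest there, and Rtp4 is highest in CMP.

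GMP carried less of the programme than CMP. Of the 40 genes, 24 passed as lower and 1 as higher in GMP, against 9.76% lower and 7.00% higher among all genes. The median difference of the 40 was -0.41 on the log2(intensity + 32) scale, against -0.01 over all genes. The count of 25 genes was lower without CMP replicate 2 and without GMP replicate 2. Leaving out any 1 array leaves 1 array in a group and fewer degrees of freedom, and the reason for the drop was not tested.

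Ifitm1, a membrane protein that hinders virus entry, measured 1068 and 1040 in CMP and 308 and 241 in GMP. The difference, GMP minus CMP on the log2(intensity + 32) scale, was -1.83 ± 0.123 (SE, as for every ± in this pair and the next ones; limma adjusted p = 4.42e-07). Rtp4, an interferon-induced chaperone of membrane receptors, measured 140 and 134 in CMP and 33.7 and 29.9 in GMP, a difference of -1.41 ± 0.108 (limma adjusted p = 1.46e-06). Xaf1, a partner of the apoptosis inhibitor XIAP, measured 160 and 153 against 64.6 and 48.5, a difference of -1.10 ± 0.132 (limma adjusted p = 7.1e-05). The arrays of the CMP and GMP groups did not overlap for any of these, and these 3 were the members past 2-fold in this pair. The other, dimmer probe set of Rtp4 gave a difference of 0.017, and that of Xaf1 gave -0.219.

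Smaller differences ran through most families. All 5 GBP and IRG GTPases that passed were lower in GMP, among them Irgm1 and Iigp1, which act on membranes around intracellular microbes: Irgm1 measured 378 and 419 in CMP and 221 and 190 in GMP, and Iigp1 50 and 52.1 against 14.4 and 15.2. Of the OAS family, which makes the oligoadenylates that activate RNase L, Oasl2, Oas2 and Oas3 were lower; Oasl2 measured 75.5 and 74.4 in CMP and 22.9 and 26.3 in GMP. Rsad2 (viperin, an antiviral enzyme) measured 68.2 and 64.5 against 26.9 and 25.8. Cxcl10, a chemokine for T cells, was the exception, at 22.6 and 28.4 in CMP and 39.6 and 42 in GMP, a difference of 0.34 ± 0.0967 (limma adjusted p = 0.0277).

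The pathway above these genes was also lower in GMP in part. Of 39 measured pathway genes outside the 40 (ligands, receptors, kinases and factors, feedback inhibitors, sensors), 12 were lower and 3 higher, and 6 of the 10 kinases and factors were lower. Irf9, which binds the ISRE together with Stat2, measured 252 and 253 in CMP and 113 and 97.2 in GMP (difference -1.05 ± 0.149, limma adjusted p = 0.000268). Irf1 was lower by a difference of -0.91, Irf2 by -0.95, Irf7 by -0.45 and Irf8 by -0.37. The receptor chains of type I interferon gave -0.06 for Ifnar1 (95% interval -0.28 to 0.17) and -0.17 for Ifnar2 (-0.38 to 0.04), and neither passed. In the other direction Ifngr1, the ligand-binding chain for interferon gamma, measured 784 and 716 in CMP and 1502 and 1572 in GMP (1.01 ± 0.0912, limma adjusted p = 6.36e-06), and Ikbke, a kinase downstream of the nucleic acid sensors, was higher by 1.18. Of 39 further interferon-induced genes outside the 40, 12 were lower and 2 higher; Ifi27l2a measured 216 and 176 in CMP and 14.3 and 15.5 in GMP.

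Markers of other cell types moved with this pair. The summed intensity of 6 neutrophil markers was 2989 to 3531 in GMP and 185.6 to 227.4 in CMP, and that of 9 plasmacytoid dendritic cell markers was 581.0 to 581.3 in GMP and 2250 to 2540 in CMP. Their part in the lower interferon-stimulated genes was not tested. In these bulk arrays fewer cells of a type and less RNA per cell cannot be told apart.

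CDP differed from CMP less evenly, with some members lower and some higher. Of the 40, 13 were lower and 4 higher, while 6.75% of all genes were lower and 7.68% higher; the medians were -0.22 for the 40 and 0.00 over all genes. Isg20, an RNA exonuclease, measured 107 and 72.4 in CMP and 17.0 and 20.9 in CDP (-1.24 ± 0.14, limma adjusted p = 6.47e-05). Ifitm1 fell to 481 and 406 in CDP (-1.20 ± 0.123) and Rtp4 to 49.0 and 49.7 (-1.05 ± 0.108), both without overlap with CMP. The other, dimmer probe set of Rtp4 gave -0.057. The 6 erythroid markers summed to 4983 to 6648 in CMP and 2081 to 2271 in CDP, with 4 lower and 1 higher in CDP, and 4 of the 9 plasmacytoid dendritic cell markers were higher there, summing to 2814 to 3150 against 2250 to 2540; their part in this pair was not tested.

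The 4 members higher in CDP were Mx1, Bst2, Stat2 and Sp100. Mx1, a GTPase that blocks influenza virus in strains with an intact gene, measured 37.9 and 35.8 in CMP and 107 and 96.2 in CDP (0.96 ± 0.108, limma adjusted p = 6.47e-05). Bst2, or tetherin, which holds budding virions on the cell surface, measured 398 and 403 in CMP and 927 and 736 in CDP (0.99 ± 0.117). Of the 39 pathway genes, 9 were higher and 3 lower: Irf8, a factor required for dendritic cell development, measured 1957 and 2110 in CMP and 4490 and 4936 in CDP (1.20 ± 0.0758, limma adjusted p = 6.3e-07), Sting1 was higher by 0.96 and Irf5 by 0.94, and Ifnar1 and Ifnar2 were higher by 0.52 and 0.49. Ifngr1 was lower, at -0.54. The further induced genes split as 10 higher and 6 lower of 39, with Ms4a4c higher by 1.92 and Ifi27l2a by 1.40.

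Set directly against GMP, CDP was higher for most members that passed. The counts were 18 higher and 4 lower of 40, against 15.9% higher and 12.1% lower among all genes, with medians of 0.28 and 0.00. Mx1 was at 107 and 96.2 in CDP against 21.1 and 15.7 in GMP (1.41 ± 0.108, limma adjusted p = 6.91e-07), and Bst2 at 927 and 736 against 325 and 301 (1.32 ± 0.117, limma adjusted p = 2.79e-06). The 4 lower ones were Isg20, Cxcl10, Ifih1 and Gbp3. Both Mx genes, 3 of 4 signalling and nuclear body genes (Stat2, Ifi35, Sp100) and 2 of 3 PARP family genes (Parp9, Parp14) were higher. The IFIT genes had a median difference of -0.07 and the OAS genes of 0.16, and no gene of these families was called. Among the kinases and factors 9 of 10 were higher, Irf8 by 1.57, Irf9 by 1.26 and Irf1 by 1.13; over the 39 pathway genes 19 were higher and 3 lower, and Ifngr1 was lower by a difference of -1.54. Of the plasmacytoid dendritic cell markers 7 of 9 were higher in CDP than in GMP, and of the erythroid markers 4 of 6 were lower (2081 to 2271 summed, against 3744 to 5846), which was not tested as a part of the result. The further induced genes gave 20 higher and 4 lower of 39.

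**Figure D2:**
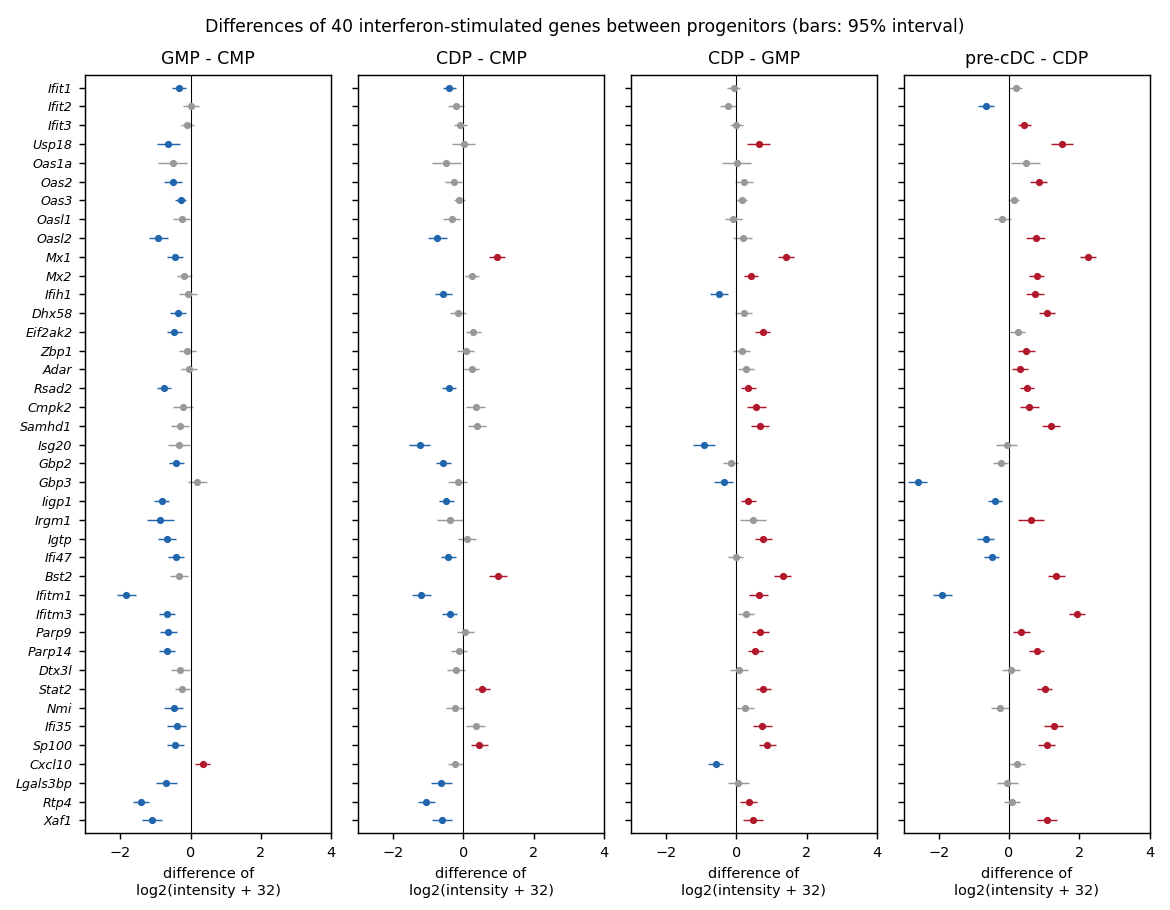
Difference of log2(intensity + 32) between progenitor groups for each of the 40 interferon-stimulated genes, with its 95% interval from the limma fit; red marks genes higher and blue genes lower at an adjusted p below 0.05, and grey the rest. Most points lie left of 0 for GMP against CMP and right of 0 for pre-cDC against CDP, where Gbp3 and Ifitm1 stand far to the left.

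Pre-cDC carried more of most members than CDP, with Gbp3 and Ifitm1 far lower. Of the 40, 22 were higher and 6 lower in pre-cDC, while 14.4% of all genes were higher and 18.8% lower; the medians were 0.45 and -0.01. Mx1 measured 576 and 626 in pre-cDC and 107 and 96.2 in CDP, a difference of 2.24 ± 0.108 (limma adjusted p = 7.1e-09). Ifitm3, which blocks virus fusion in endosomes, measured 5577 and 5431 against 1464 and 1369 (1.93 ± 0.101, limma adjusted p = 1.48e-08). In each of these the pre-cDC arrays lay above both CDP arrays with a wide gap.

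Genes that damp or carry the signal were among those higher. Usp18, which removes ISG15 from proteins and restrains the type I receptor, measured 248 and 187 in pre-cDC and 69.6 and 42.9 in CDP (1.51 ± 0.15, limma adjusted p = 4.64e-06). Stat2 measured 137 and 150 against 51.2 and 58.3 (1.02 ± 0.0987, limma adjusted p = 3.71e-06); its other probe set gave a smaller difference of 0.41. Ifi35, a partner of Nmi, measured 2146 and 1600 against 807 and 702 (1.27 ± 0.127). Sp100, a nuclear body protein, measured 929 and 859 against 439 and 381 (1.07 ± 0.111), and its other probe set gave 1.13.

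Of the 3 membrane restriction factors Bst2 and Ifitm3 were higher and Ifitm1 lower, and 4 of the 5 RNA and DNA sensing members were higher. Bst2 measured 2310 and 2009 in pre-cDC (1.35 ± 0.117 above CDP), Samhd1, which destroys deoxynucleotides, 2158 and 2193 against 1086 and 802 (1.19 ± 0.122), and Xaf1 261 and 203 against 98.1 and 85 (1.09 ± 0.132). The other, dimmer probe set of Xaf1 gave 0.139, while the other probe sets of Samhd1 gave 1.267 to 1.745. Dhx58, a regulator of the RNA sensors, measured 131 and 108 against 41.6 and 36.8 (1.08 ± 0.107); of its 2 other, dimmer probe sets, 1 gave 0.08 and 1 gave -0.29. The sensor Ifih1 measured 145 and 114 against 67.0 and 62.1. Oas2 at 62.2 and 64.2 and Mx2 at 55.3 and 68.0 were each above CDP (22.8 and 19.6, and 20.8 and 23.6). Parp14 measured 247 and 261 against 132 and 136, and Parp9 255 and 227 against 201 and 165. Cmpk2, a nucleotide kinase encoded beside Rsad2, measured 316 and 321 against 235 and 175. Irgm1 measured 518 and 432 against 379 and 231.

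Within the GBP and IRG GTPases the direction was mostly the opposite. Gbp3, a guanylate-binding protein, measured 597 and 647 in CDP and 84.2 and 68.0 in pre-cDC, a difference of -2.60 ± 0.123 (limma adjusted p = 5.87e-09). It was the most negative of the 40 in this pair, and its level in CMP (746 and 660) and GMP (884 and 730) was as high as in CDP or higher. Igtp, Ifi47 and Iigp1 were lower by differences of -0.67, -0.49 and -0.40, so 4 of the 6 GTPases were lower and 1, Irgm1, was higher. Outside the 40 the related genes Gbp7 (-2.12) and Gbp6 (-0.91) were lower as well. Ifitm1 measured 94.0 and 96.9 in pre-cDC (-1.90 ± 0.123 from CDP, limma adjusted p = 1.04e-07), opposite to its relative Ifitm3. Ifit2, which binds viral RNA, was lower by a difference of -0.65, while Ifit3 was higher by 0.43.

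Of the 39 pathway genes 10 were higher and 7 lower in pre-cDC than in CDP; among them the 12 sensors and adaptors outside the 40 split as 3 higher and 5 lower. Irf7, a factor that is itself interferon-induced and amplifies type I interferon production, measured 344 and 259 in pre-cDC and 42.2 and 29.2 in CDP (2.30 ± 0.133, limma adjusted p = 3.63e-08). Irf5 was higher by 2.17, Jak2 by 1.67, Tyk2 by 1.48, Myd88 by 1.28 and Irf9 by 1.06. Irf1 was lower by a difference of -0.30, and Irf8, at 4990 and 5468, differed by 0.15 (95% interval -0.02 to 0.31) and did not pass. Ifngr1 was higher by 0.78; Ifnar1 (0.09, interval -0.14 to 0.32) and Ifnar2 (0.22, interval 0.01 to 0.43) did not pass after adjustment. Of the further induced genes 18 were higher and 3 lower of 39, led by Ifitm6 (3.51), Slfn5 (2.76) and Slfn2 (2.65).

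Ifnb1, interferon beta, lay between 8.47 and 18.2 on the 8 progenitor arrays, was above the array median on 1 of them, and did not pass in the 4 pairs just described. Socs1, a feedback inhibitor of the kinases, lay between 7.77 and 15.8, and Ifngr2 gave group means of 2.72 to 5.27; neither passed.

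The dimmer or steadier members complete the progenitor picture. Eif2ak2, the RNA-activated kinase PKR, measured 263 and 286 in CMP, 191 and 187 in GMP, 342 and 340 in CDP and 401 and 417 in pre-cDC, lowest in GMP without overlap. Nmi lay between 173 and 296, Lgals3bp between 295 and 613, Adar, an RNA-editing enzyme, between 63.7 and 122, and Zbp1, a sensor of left-handed nucleic acid, between 12.3 and 46.6. Gbp2 lay between 14.9 and 59.9, Oasl1 between 19.4 and 43.9 and Ifit3 between 16.2 and 37.6. Ifit1 lay between 6.54 and 24.4 and was above the array median in CMP alone, and Oas3, between 5.04 and 15.7, was below it on every progenitor array. Oas1a, between 107 and 250, and Dtx3l, between 299 and 410, are the members that passed in no pair; the 95% interval for Oas1a in pre-cDC against CDP ran from 0.06 to 0.88.

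The plasmacytoid dendritic cell markers, which belong to a cell type rich in these transcripts, summed to 3099 to 3319 in pre-cDC and 2814 to 3150 in CDP, with 8 of the 9 above the array median in both. Gene by gene, 5 of the 9 were higher in pre-cDC and 3 lower, with a median difference of 0.49; Siglech was higher by 1.27, and Dntt, with a mean of 992 in CDP and 4.44 in pre-cDC, was lower. Their part in the result was not tested. Neutrophil markers summed to 311.1 to 346.5 in pre-cDC and 308.7 to 416.7 in CDP.

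The remaining pairs use the same arrays again. Pre-cDC against GMP had 24 members higher and 7 lower, against 21.0% and 23.1% of all genes, with a median of 0.62; Mx1 differed by 3.65 ± 0.108, Bst2 by 2.66 ± 0.117 and Ifitm3 by 2.21 ± 0.101 (limma adjusted p = 2.51e-11, 8.32e-10 and 1.2e-09). Pre-cDC against CMP had 19 higher and 12 lower, against 19.1% and 23.0%, with a median of 0.20; there Ifitm1 differed by -3.09 ± 0.123, Gbp3 by -2.77 ± 0.123, Isg20 by -1.31 ± 0.14 and Rtp4 by -0.97 ± 0.108. The pathway genes gave 19 higher and 4 lower of 39 against GMP and 16 higher and 5 lower against CMP, and the further induced genes 25 and 4, and 21 and 5.

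The cultures asked how cells raised with M-CSF, the macrophage growth factor, differ from those raised with GM-CSF, which yields both macrophages and CD11c+ dendritic-like cells. With 1 array per culture there is no replicate check, and a gene is counted when it differed at least 2-fold in log2(intensity + 32) and its higher value was above the array median. M-CSF adherent cells held the highest level of 27 of the 40 genes, CD11c+ GM-CSF cells of 11 and adherent GM-CSF cells of 2. In the order M-CSF adherent, GM-CSF adherent, GM-CSF CD11c+, 22 genes descended. The matching shares of all genes were not computed.

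Adherent GM-CSF cells were at least 2-fold lower than adherent M-CSF cells for 10 members and higher for 1, against 2.12% and 3.37% of all genes, with medians of -0.57 for the 40 and -0.02 over all genes. The lower ones were Ifit1, Ifit2, Ifit3, Oasl2, Rsad2, Cmpk2, Dhx58, Iigp1, Rtp4 and Xaf1. The CD11c+ cells were lower than the M-CSF cells for 15 members and higher for 4, against 4.29% and 5.32%, with a median of -0.61. Against the adherent GM-CSF cells they were higher for 3 and lower for 2, against 2.45% and 1.28%, with a median of -0.11; that count of 5 became 9 with a pseudocount of 16.

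The IFIT genes showed the descent in full. Ifit2 measured 1411 in M-CSF adherent, 335 in GM-CSF adherent and 127 in CD11c+ cells. Ifit3 measured 1056, 272 and 157 in the same order, and Ifit1 575, 167 and 81.3. All 3 were therefore lowest in the CD11c+ cells. Rtp4 measured 3457, 987 and 524, Rsad2 2508, 836 and 432, and Oasl2 2240, 834 and 479. Cmpk2 measured 1031, 342 and 114. Iigp1 measured 213, 60.1 and 21.9, the last below the array median.

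Other members went the opposite way. Ifitm1 measured 224 in M-CSF adherent cells, 4677 in GM-CSF adherent cells and 6642 in CD11c+ cells, so that it was 4.20 and 4.71 higher on the log2 scale with GM-CSF. Mx1 measured 289 in both adherent cultures and 1908 in the CD11c+ cells (2.60 higher). Gbp2 measured 683, 1135 and 2582, and Gbp3 378, 706 and 989. Usp18 measured 527, 369 and 920. The high values of Mx1 and Usp18 were thus on the CD11c+ array and not on the adherent GM-CSF array.

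Among the pathway genes, 2 of 39 were higher and 1 lower in adherent GM-CSF than in M-CSF cells. Irf7 measured 1077 in M-CSF adherent, 382 in GM-CSF adherent and 258 in CD11c+ cells. Socs3, a feedback inhibitor induced by several cytokines, measured 24.2, 829 and 508, and Socs1 33.2, 62.4 and 131. Irf8 was higher in CD11c+ cells (5181, against 2268 and 2075), as was Irf1 (2959, against 1353 and 1023). Irf9 measured 747, 509 and 588, Ifnar1 1061, 1223 and 1180, Ifnar2 2387, 2553 and 2729, and Ifngr1 1970, 2623 and 2844. Ifnb1 was at 4.84, 14.4 and 29.6, and only the last was above its array median. The summed neutrophil markers were 10510, 23050 and 1665, and the plasmacytoid dendritic cell markers 7824, 3441 and 4375; their part in these differences was not tested.

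**Figure D3:**
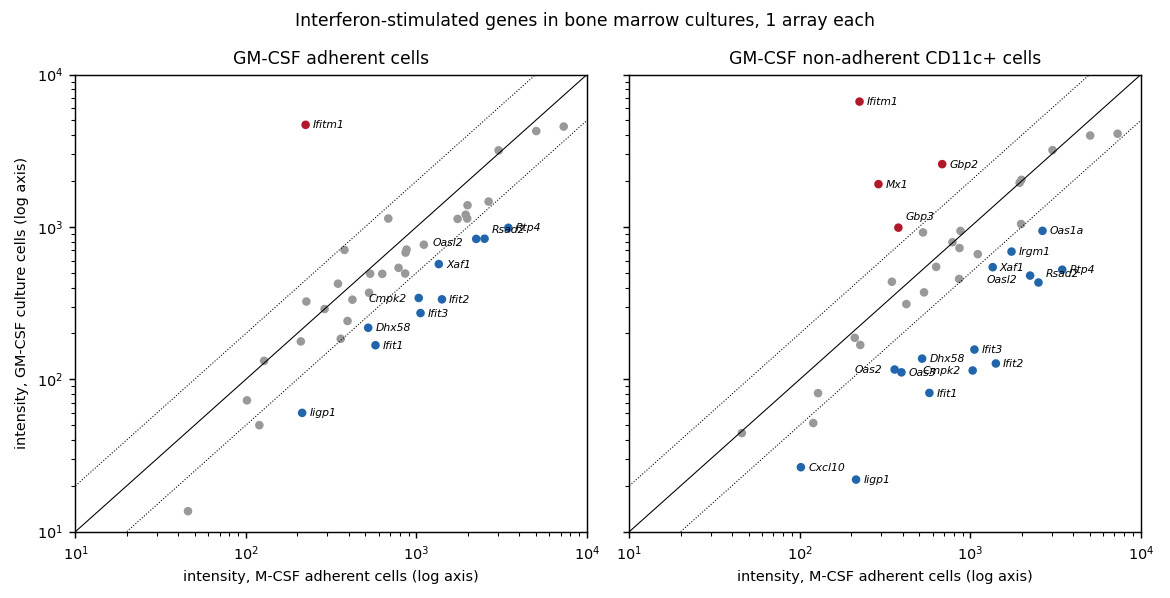
Intensity of each of the 40 interferon-stimulated genes in adherent (left) and CD11c+ (right) GM-CSF culture cells against the adherent M-CSF cells, log axes, 1 array each; the solid line marks equal intensity, the dotted lines 2-fold, and coloured points are the genes counted as higher (red) or lower (blue). More points lie below the lower dotted line at right (15 counted lower) than at left (10), and Ifitm1 lies above in both.

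In monocytes given GM-CSF, most of the programme was lower at 24 h and part of it was back at 48 h. At 24 h against 0 h, 27 of the 40 were at least 2-fold lower and 1 was higher, against 7.29% lower and 6.22% higher over all genes. Of the 40, 13 were at least 4-fold lower, a count given here without the share of all genes. At 48 h against 24 h, 21 were higher and none of the 40 was lower by that rule, against 2.75% higher and 0.890% lower. The medians were -1.37 and 1.04, each against 0.00 to 0.02 over all genes. In the median gene the intensity at 24 h was 36.9% of that at 0 h, and at 48 h it was 69.0%. There is 1 array per time, so these are values of 3 arrays with no replicate check, and both differences use the same 24 h array. No monocytes kept for 24 or 48 h without GM-CSF were measured. GM-CSF and time in culture therefore cannot be told apart.

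In all, 19 of the 40 were both at least 2-fold lower at 24 h and at least 2-fold higher again at 48 h, a rule that 0.737% of all genes met. This pattern was already named when the gene set was listed, so the contrast of these shares is no test of it. The rule also asks that the higher value be above the array median, as all 40 were at 0 h and at 48 h. By any size, 35 of the 40 were lower at 24 h and higher at 48 h than at 24 h, as were 32.1% of all genes. At 48 h, 15 of the 19 were still below their 0 h intensity.

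Among the 19, Oasl2 measured 3143 at 0 h, 86.0 at 24 h and 1332 at 48 h. Rtp4 measured 3523, 108 and 1649, while its other, dimmer probe set gave log2 differences of -0.493 and then 0.142. Ifit1 measured 585, 16.3 and 470, so that it was back at 80.3% of its first value. Ifit2 measured 1125, 91.8 and 542, and Oas3 295, 18.8 and 138. Xaf1 measured 1330, 173 and 855; its other, dimmer probe set gave a difference of 0.48 and then -0.51, opposite in sign at both steps.

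Cmpk2 had the most negative difference of the 40 at 24 h (-5.32), and it and its neighbour on chromosome 12, Rsad2, were furthest below the start at 48 h among the 19. Rsad2 measured 1882, 124 and 486, which is 25.8% of the first value at 48 h. The other probe sets of Rsad2 gave log2 differences of -0.498 and then -0.172, and of -2.239 and then 0.955. Cmpk2 measured 3003, 43.7 and 189, or 6.31%, and its other probe set gave log2 differences of -2.11 and then -0.004. Dhx58 measured 694, 115 and 320, whereas its 2 other probe sets gave -0.17 and 0.11 at 24 h and -0.24 and -0.12 at 48 h. At 24 h Ifit1, Oas3, Cmpk2, Oasl1 and Sp100 were below the array median of 77.73, where the added 32 weighs most. Of the other probe sets of the members counted at a step, 11 of 13 had the same sign at 24 h against 0 h and 4 of 9 at 48 h against 24 h.

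The others of the 19 ended between 52.5% and 256% of the start. Usp18 measured 2085, 851 and 2597. Stat2 measured 514, 140 and 627, Gbp3 2265, 737 and 2387, and Gbp2 1798, 879 and 4596. These 4 were the ones above their 0 h intensity at 48 h. Oas1a measured 3672, 1369 and 3335, Ifih1 2610, 1007 and 2163, Mx1 2212, 509 and 1162, and Oasl1 216, 54.0 and 141. The GTPases Irgm1 (2444, 654 and 1465) and Ifi47 (7184, 1877 and 4173) were at 59.9% and 58.1% of the start.

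Some members were lower at 24 h and did not come back 2-fold. Ifitm3 measured 17619, 2117 and 2744, leaving 15.6% at 48 h. Sp100 measured 691, 75.0 and 141 (20.4%), and its other probe set gave -2.18 and 0.80. Isg20 measured 762, 123 and 223. Zbp1, Igtp, Parp14, Dtx3l and Cxcl10 were also at least 2-fold lower at 24 h. Ifitm1 ran the other way, at 747, 2639 and 8239, and was 3.41 higher at 48 h than at 0 h on the log2 scale. Lgals3bp, a secreted glycoprotein, measured 1369, 869 and 3554. Bst2 measured 513, 727 and 928. At 48 h against 0 h, 10 members were lower and 3 (Ifitm1, Lgals3bp, Gbp2) were higher, against 6.19% and 7.40% of all genes, with a median of -0.51.

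**Figure D4:**
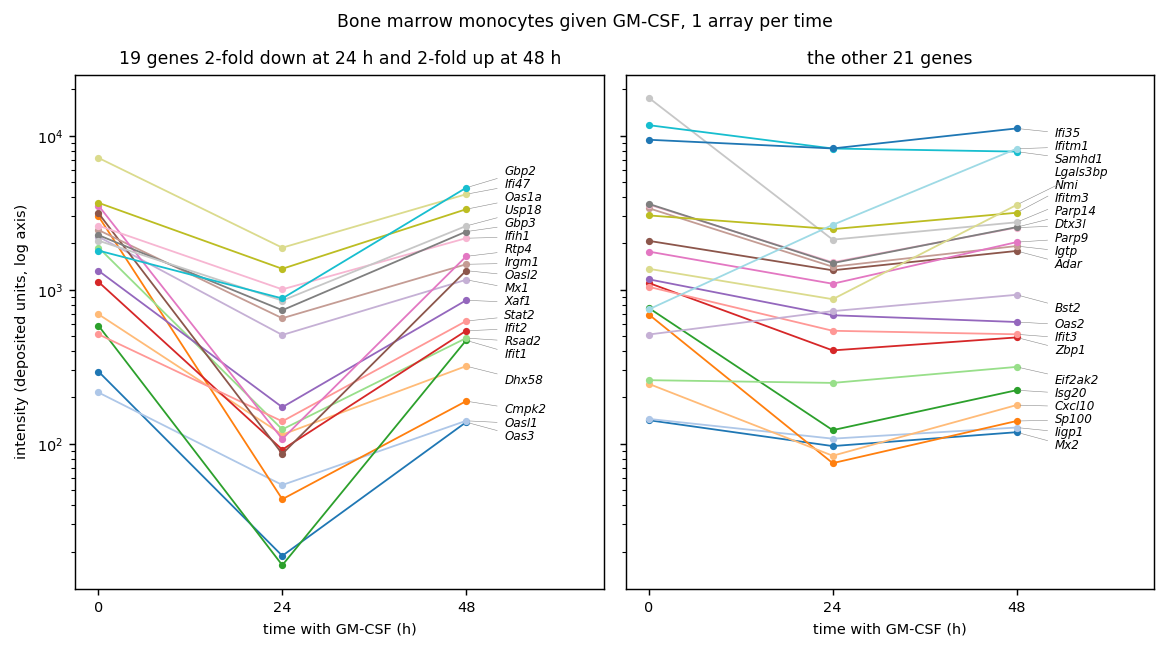
Intensity (log axis) of the 40 interferon-stimulated genes in bone marrow monocytes at 0, 24 and 48 h with GM-CSF, 1 array per time; the left panel holds the 19 genes at least 2-fold lower at 24 h and at least 2-fold higher again at 48 h, the right panel the other 21. The left lines form a V whose right arm ends below the start in 15 genes, and Ifitm1 climbs at both steps in the right panel.

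The transcription factors of the pathway differed among themselves. Irf7, at 3705, 219 and 542, and Irf9, at 2323, 566 and 1183, were counted as lower at 24 h and higher again at 48 h. Irf8 measured 10171, 1162 and 1791 and was counted at the first step alone. Irf1 (5087, 2830 and 4070), Irf2 (384, 274 and 379) and Irf3 (3949, 3128 and 3874) were counted at neither, nor was Irf5, which ran the other way (5846, 8721 and 5880). Of the 4 feedback inhibitors, Socs1 (8.91, 245 and 260) and Socs3 (1039, 5178 and 6388) were higher at 24 h, while Pias1 (3890, 2424 and 2630) and Ptpn2 (7089, 6542 and 7657) were counted at neither step. Ifnb1 measured 68.6, 55.5 and 79.5, below the array median at each time. The receptor chains measured 1434, 2431 and 1674 for Ifnar1, 4694, 3229 and 3027 for Ifnar2, and 6857, 3258 and 3330 for Ifngr1. Over the 39 pathway genes, 7 were lower and 4 higher at 24 h, and 2 (Irf7 and Irf9) were higher again at 48 h; of the further induced genes 16 were lower and 1 higher, then 7 higher and 1 lower.

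Marker levels shifted along the same arrays. The 6 neutrophil markers summed to 18050, 2986 and 3850, all 6 above the array median at each time, the 5 GMP genes to 30480, 12650 and 11650, and the 5 B cell markers to 1146, 378.4 and 312.1. Of the B cell markers, only Cd79b (-3.68) and Vpreb1 (-1.10) were counted at 24 h. The 9 plasmacytoid dendritic cell markers summed to 3215, 2353 and 3794, with 3, 4 and 4 above the array median, so their sum was lowest at 24 h. Gene by gene they differed. Tcf4 was counted as lower at 24 h (-1.26), Pacsin1 as higher at both steps (1.82, then 2.79), and the rest at neither step. The 6 erythroid markers summed to 3923, 8444 and 14040, but they did not move together. At 24 h Tfrc (1.46) and Hba-a1 (1.07) were counted as higher and Klf1 (-1.48) and Car2 (-1.58) as lower. From 24 to 48 h Car2 alone was counted (5.03). The 6 CDP and pre-cDC genes summed to 8332, 54770 and 53990, and the 5 macrophage genes to 31710, 39040 and 38130. Their part in the result was not tested.

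The pre-cDC array titled Spl was set against the bone marrow pre-cDC arrays after its values had been mapped by rank onto theirs, because it was deposited on another scale; it lies 0.82 higher on the log2 scale in the median gene. Of the 40 members, 9 were at least 2-fold lower than the bone marrow mean and below both arrays and 3 were higher and above both, against 6.50% and 6.76% of all genes, with medians of -0.31 and -0.02. Mx1 had a mapped value of 22.5 where the bone marrow arrays had 576 and 626 (-3.54), and Cmpk2 had 13.6 against 316 and 321 (-2.94). Lgals3bp, Usp18, Igtp, Sp100, Ifit2, Rtp4 and Samhd1 were lower by -2.08 to -1.01. Ifitm1 was higher, at a mapped 3309 against 94.0 and 96.9 (4.71), as were Cxcl10 (131 against 26.2 and 23.9) and Oas3 (66.1 against 15.7 and 14.7). Bst2 and Ifitm3 had mapped values of 2365 and 4411, beside 2310 and 2009, and 5577 and 5431.

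Of the 39 pathway genes 8 were higher and 4 lower on the Spl array, with Irf8 at a mapped 331 against 4990 and 5468 and Socs3 at 751 against 24.3 and 26.7. Irf7 had 304 beside 344 and 259. As deposited, the plasmacytoid dendritic cell markers summed to 7827, with 8 of 9 above its array median, and the CDP and pre-cDC genes to 28000, with 6 of 6; both sums are on the Spl array's own scale, and their part in these differences was not tested. With 1 array on a scale of its own, a difference between tissues and a difference between arrays cannot be told apart.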

How the data were processed

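RNA from 15 samples was hybridised to 1-colour Affymetrix 3′ arrays with a biotin label, per the labels' protocols. The deposited series table holds linear intensities per probe set, of which 34945 of 45037 name 1 gene, 932 several and 9160 none; the background correction, summarisation and scaling by the authors are not given in the sources used here. Of 18193 genes, 18031 matched RefSeq (GRCm38.p6).

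The 8 progenitor arrays were fitted together on log2(intensity + 32) with limma (version 3.58.1, under R 4.3.3; moderated variances with a trend on intensity), with 4 residual degrees of freedom, two-sided, Benjamini-Hochberg adjusted over all genes at 0.05. The added 32 understates changes of dim genes, and the number of arrays limits the precision. Groups with 1 array were not tested. The fit code was run on simulated independent normal values with known changes added, which checks the code and not the spread of these arrays.

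The members and gene lists were chosen with earlier results of these data known. Values per array are given for members past 2-fold in a progenitor pair, past 4-fold or lower and back 2-fold in monocytes, or past 4-fold in cultures, and up to 5 pathway genes a pair with the largest called differences, plus the receptors and factors fixed by name. Other members, and the further induced genes named, serve as examples chosen after their values were seen. Array numbers in the titles were checked as pairs: deviations of same-numbered arrays correlated at -0.022 to 0.181 over 6 pairs of groups. Alternatives were the pseudocount, a filter, quantile normalization, no trend, the mean of probe sets, a block for array number, and leaving out each array.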

Additional observations from a re-analysis of the deposited data

How the results depend on the processing

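Leaving out each array in turn gave 13 to 26 members passing for GMP against CMP, 13 to 18 for CDP against CMP, 15 to 22 for CDP against GMP, 25 to 29 for pre-cDC against CDP, 29 to 33 for pre-cDC against GMP and 29 to 31 for pre-cDC against CMP; fewer arrays leave fewer degrees of freedom. The arrays share only a number, so a replicate block is an alternative: with it 27, 21, 24, 29, 32 and 31 members passed in the same order. Pseudocounts of 16 and 64, quantile normalization, no intensity trend, the mean of a gene's probe sets and a filter (10531 genes and 38 members tested) kept each progenitor count within 1.5 times. A 4-fold in place of a 2-fold rule left 1 member for GM-CSF adherent against M-CSF adherent cells, 1 for CD11c+ against adherent GM-CSF cells, 10 for CD11c+ against M-CSF cells, 13 for monocytes at 24 h against 0 h, 6 at 48 h against 24 h, 4 at 48 h against 0 h, 4 for the Spl array and 5 that were lower and then higher. These 4-fold counts are given without the share of all genes. A pseudocount of 16 raised CD11c+ against adherent GM-CSF cells from 5 to 9. The 19 genes lower and then higher became 15 after quantile normalization and 14 with the mean of probe sets, under which Dhx58 differed by -0.79 at 24 h and Xaf1 by 0.80 at 48 h. A change of sign was looked for only in members past 2-fold in a progenitor pair or past 4-fold in another comparison, and none was found. Taken singly, some other probe sets had the opposite sign, among them those given above for Xaf1, Dhx58, Rtp4, Cmpk2 and Rsad2. Signal over background limits the dim members, such as Ifit1 and Oas3 in progenitors.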
